A study of Homo sapiens with 27 samples.

Results

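MYC and its neighbour PVT1 were followed through the RNA, input DNA, chromatin and RNA immunoprecipitation data of HL-60, a human leukaemia line with promyelocyte features. Both genes were found by name, 2 of 58233 genes in each gene table, and their peaks by position. The chromosomal window ran from 20 kb before MYC to 20 kb behind it, and along the whole of PVT1. It held 155 of the 764377 peaks of 13 peak lists, 49 of them around MYC and 106 in PVT1.

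All 27 libraries came from HL-60, each the sole library of its group, so every difference given here compares libraries and no test between conditions was possible. Nascent RNA, captured by click chemistry after labelling of new transcripts, came from cells given 100 µM DRB, 0.8 µM actinomycin D (ActD) or the vehicle DMSO, and from untreated cells, which also gave total RNA. Chromatin immunoprecipitation (ChIP) of acetylated H2A.Z (acH2A.Z) and of H2A.Z was done under DRB, ActD and DMSO and in cells labelled siMyc or siNTC, and input DNA was sequenced for DRB, ActD and DMSO. RNA immunoprecipitation (RIP) of Tip60, acH2A.Z and H2A.Z was done in untreated cells. DRB inhibits the kinase CDK9, which releases paused RNA polymerase II, and ActD intercalates into DNA and stops polymerases. No RNA library of siMyc or siNTC cells was analysed here, so the effect of siMyc on MYC RNA could not be checked. The length of the treatments is not given in the sources used here, and libraries made with IgG were not analysed here.

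MYC encodes a transcription factor that pairs with MAX and drives growth and ribosome production, and its messenger RNA and protein are both short-lived. PVT1 is a long non-coding RNA gene downstream of MYC that hosts several microRNAs and is often gained together with MYC in cancer. HL-60 is known for extra copies of the MYC region. H2A.Z is a histone H2A variant found next to transcription starts, and Tip60, encoded by KAT5, is an acetyltransferase that can acetylate it.

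By the RefSeq annotation of GRCh38, MYC is a protein-coding gene on chromosome 8 from 127735434 to 127742951 and PVT1 a long non-coding RNA gene from 127794524 to 128101256, 51.6 kb behind it. The RNA libraries held 12600067 to 25167597 expected counts. Mitochondrial genes took 66.5% of them in DRB, 56.9% in ActD and 45.9% in DMSO, against 0.560% in untreated nascent and 0.649% in total RNA. Of 8 promyelocyte markers 6 to 8 were above 0 in each library, with ELANE at 0 in all but untreated nascent RNA. Markers of B cells, T cells, erythroid cells, epithelium and fibroblasts summed to at most 2.42 CPM per type and library. RNA values are CPM, counts divided by the total of their library, so each is a share of the RNA sequenced. Ratios are log2 of CPM with 1 CPM added, and "rose", "fell", "higher" and "lower" mean at least 2-fold, or 1 unit of the log2 ratio. Brackets hold 95% intervals for the plain count ratio, before any CPM is added, so the printed ratio can fall outside them. Like all intervals here, they cover counting error only.

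On the CPM scale nascent MYC RNA was nearly gone in DRB and partly kept in ActD, while PVT1 RNA was partly kept in DRB and nearly gone in ActD. MYC had 16 counts in DRB, 439 in ActD and 2208 in DMSO, which are 1.12, 34.8 and 153 CPM. PVT1 had 76 counts in DRB, 1 in ActD and 160 in DMSO, which are 5.30, 0.0794 and 11.1 CPM. DRB was thus the lowest of the 3 libraries for MYC, and ActD the lowest for PVT1.

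**Figure D1:**
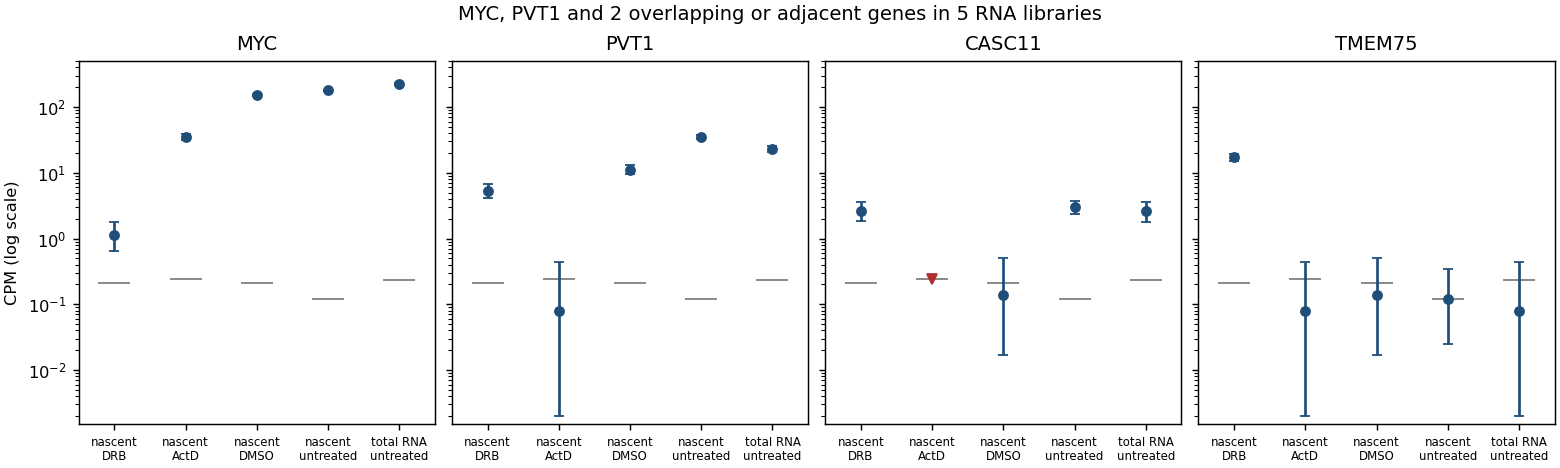
CPM on a log axis of MYC, PVT1, CASC11 and TMEM75 in 5 RNA libraries, with exact 95% Poisson intervals (points), the level of 3 counts (grey bars) and genes at 0 counts drawn at that level (red triangle). MYC was lowest in DRB at 1.12 CPM, PVT1 lowest in ActD at 0.0794 CPM, and TMEM75 stood at 17.2 CPM in DRB, near or below the 3-count level elsewhere.

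MYC fell in DRB relative to DMSO with a log2 ratio of -6.19 [-7.91, -6.40]. Among the 12121 genes measured in this comparison, 54.7% fell and 9.1% rose, and the median gene stood at -1.19. With 1 CPM added, the gene for the mitotic kinase AURKA, at -6.47, was the 1 gene lower than MYC. The added CPM limits how far a gene with few counts in DMSO can fall, so this rank favours genes high in DMSO. RNF139 had 1 count in DRB and 182 in DMSO, yet stood at -3.67. TRIB1 had 9 counts in DRB and 1150 in DMSO and stood at -5.63, and its interval of [-8.12, -6.06] overlaps that of MYC. The rank of MYC on plain count ratios was not tested. Relative to the median gene MYC still stood at -5.001. PVT1 had a ratio of -0.94 [-1.48, -0.66] in the same libraries, short of 2-fold, and 6810 genes were lower. Relative to the median gene PVT1 stood at 0.24, so the direction of its difference turned with the scaling.

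In ActD relative to DMSO, MYC fell with a log2 ratio of -2.10 [-2.29, -1.99], and 3537 of 12121 genes were lower. Here 50.1% of genes fell, 15.4% rose and the median gene stood at -1.01, which left MYC at -1.10 relative to it. PVT1 fell with -3.49 [-12.44, -4.63], and 870 genes were lower. The single PVT1 count in ActD makes that interval wide, and the size of the fall depends on the CPM added. With 0.1 CPM added in place of 1, the PVT1 ratio was -5.96 and the MYC ratio -2.13. The ranks given here were taken with 1 CPM added.

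Set directly against each other, ActD had more MYC and less PVT1 RNA than DRB. The MYC ratio of ActD to DRB was 4.08 [4.25, 5.78], and that of PVT1 was -2.55 [-11.38, -3.54]. With 0.1 CPM added, the MYC ratio was 4.84 and the PVT1 ratio -4.91. Of all measured genes 32.9% rose and 26.9% fell in this comparison, with the median gene at 0.10. MYC therefore ranked above 11572 of 12121 genes in it, and PVT1 above 1268. The 3 comparisons share libraries, so these ratios are not independent of those above.

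PVT1 exceeded MYC in DRB in plain CPM, and also when the level was taken per kb of effective transcript length. In DRB, MYC had 0.714 CPM per kb and PVT1 6.87 CPM per kb. In ActD, MYC had 29.9 CPM per kb and PVT1 0.172 CPM per kb, and in DMSO MYC had 109 CPM per kb and PVT1 13.8 CPM per kb. PVT1 thus exceeded MYC per length in DRB and in none of the other 4 libraries. Untreated nascent RNA had 116 CPM per kb of MYC and 46.4 of PVT1, and total RNA 154 of MYC and 68.8 of PVT1. The effective length is an average over annotated transcripts that the authors' software estimated in each library, and for PVT1 it ran between 336 and 801 bases.

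The vehicle library was not the same as untreated nascent RNA, more so for PVT1 than for MYC. MYC had 2208 counts, or 153 CPM, in DMSO and 4491 counts, or 178 CPM, in untreated nascent RNA, a log2 ratio of -0.22 [-0.30, -0.15]. PVT1 had 160 counts, or 11.1 CPM, in DMSO and 893 counts, or 35.5 CPM, in untreated nascent RNA. Its ratio of -1.59 [-1.93, -1.43] makes PVT1 lower in DMSO, as were 24.5% of 13714 genes, while 23.3% were higher. The mitochondrial share and the depth differ between these 2 libraries as given above, and their part in the PVT1 difference was not tested.

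In untreated cells MYC made up a smaller share of nascent than of total RNA, and PVT1 a larger share, both within 2-fold. Total RNA held 2875 MYC counts (227 CPM) and 293 PVT1 counts (23.1 CPM). The log2 ratio of untreated nascent to total RNA was -0.34 [-0.41, -0.28] for MYC, at the median gene of -0.34. It was 0.60 [0.43, 0.81] for PVT1, above 85.9% of 13988 genes. Over all genes, 9.5% were higher and 17.8% lower in nascent RNA.

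2 further non-coding genes touch the pair. CASC11 lies just upstream of MYC, and TMEM75 lies inside PVT1, 152 kb from its start, where RefSeq names it LINC02912. TMEM75 had 247 counts in DRB, 1 in ActD, 2 in DMSO, 3 in untreated nascent and 1 in total RNA. Its log2 ratio of DRB to DMSO was 4.00 [5.09, 10.01]. TMEM75 met the limit for a measured gene only through its DRB counts, so no rank among genes is drawn from this ratio. CASC11 had 37 counts in DRB, 0 in ActD, 2 in DMSO, 76 in untreated nascent and 33 in total RNA. Its ratio of counts in DRB to DMSO lay between 2.26 and 7.32 on the log2 scale, and its mean CPM was below the limit for a measured gene. DRB thus had more counts of both than DMSO, while MYC fell. Whether counting used the strand is not given in the sources used here, and without strand, reads of TMEM75 and of the overlapping PVT1 transcript cannot be told apart. The microRNA genes inside PVT1, MIR1204 to MIR1207, and the nearby MIR1208 were at 0 in all 5 RNA libraries, but at their length almost no read could be assigned to them, since their effective length was 5.1 bases at most. A separate row named PVT1_1 had 44.5 counts in untreated nascent RNA and 0 in the other 4 libraries.

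Of 9 measured partners and antagonists of MYC, 2 rose and 2 fell in DRB relative to DMSO, where 9.1% of all genes rose and 54.7% fell. Their median was -0.77, beside -1.19 for all genes. MAX, the obligate partner of MYC, had 16.3 CPM in DRB, 61.7 CPM in ActD and 28.4 CPM in DMSO. MAX was therefore within 2-fold in DRB, at -0.77, and rose in ActD, at 1.09. MXD4, which also pairs with MAX and opposes MYC, rose in DRB at 1.24, and MXI1 was the other riser at 1.03. Both rose relative to a low DMSO value. The log2 ratio of DMSO to untreated nascent RNA was -2.15 for MXD4 and -1.44 for MXI1. In DRB both stayed below untreated nascent RNA in CPM. MXD1, an antagonist like MXD4, was the lowest partner in ActD at -4.33. In ActD 1 partner rose and 1 fell, with a median of -0.22, where 15.4% of all genes rose and 50.1% fell around a median of -1.01.

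Of 23 measured genes known to act on MYC transcription, RNA or protein, 16 fell and 1 rose under DRB, the median being -1.39, beside 54.7% and 9.1% of all genes. In ActD 11 fell and 1 rose, with a median of -0.90, beside 50.1% and 15.4% of all genes. KAT5, the gene for Tip60, had 7 counts in DRB, 2 in ActD and 289 in DMSO. Its ratios were -3.82 in DRB and -4.18 in ActD, so KAT5 fell in both. CTCF, a chromatin insulator protein that binds near MYC, fell in DRB at -3.20 and in ActD at -2.74. It fell relative to a high DMSO value of 110 CPM, where untreated nascent RNA had 28.9 CPM. CTCF had 11.1 CPM in DRB and 15.6 CPM in ActD. FBXW7, which targets the MYC protein for degradation, stayed within 2-fold in both, at 0.08 in DRB and -0.73 in ActD. The RNA-binding protein gene IGF2BP3, of a family that stabilises MYC messenger RNA, was the 1 riser in DRB at 1.18. IGF2BP1, of the same family, fell in DRB at -1.26. In ActD IGF2BP1 fell at -2.56 and IGF2BP3 at -3.98, and the kinase gene PIM1 was the 1 riser at 1.45.

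Of 32 measured textbook MYC target genes, 12 fell and 1 rose under DRB, where 54.7% of all genes fell and 9.1% rose. Their median was -0.67, beside -1.19 for all genes. In ActD 11 targets fell and 2 rose, where 50.1% of all genes fell and 15.4% rose, and their median was -0.64, beside -1.01 for all genes. The phosphatase gene CDC25A was lowest in DRB at -4.55, and the ribosome biogenesis gene PES1 lowest in ActD at -3.64. TERT, the catalytic subunit of telomerase, was highest in both, at 1.44 in DRB and 2.39 in ActD. It had 16.8 CPM in DRB, 33.3 CPM in ActD and 5.55 CPM in DMSO, but 52.3 CPM in untreated nascent RNA. TERT thus rose relative to a low DMSO value and stayed below untreated nascent RNA in both.

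The 5 genes most like MYC over 4 RNA comparisons (5 libraries) were CCNF, CTA-941F9.10, CDCA4, NUP62 and TRIM59, at distances of 1.37 to 1.51, where the median of 13040 genes was 5.71. CCNF, a cyclin gene, had 1.40 CPM in DRB, 20.9 CPM in ActD and 81.0 CPM in DMSO. The 5 most like PVT1 were AC138969.4, DAP3, DOT1L, ICAM3 and RAB5C, at distances of 0.508 to 0.685, against a median of 3.92. DAP3, a mitochondrial ribosome gene, had 0.238 CPM in ActD and 13.7 CPM in DMSO. The distance is Euclidean over log2 ratios. PVT1 had closer matches than MYC, but the median gene was also nearer to PVT1, at 3.92, than to MYC, at 5.71.

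The input DNA gave a measure of gene dose, and it was high at MYC. The 3 input libraries were shallow, at 440923 to 469547 expected counts. MYC had 109 counts in DRB, 111 in ActD and 100 in DMSO. Per kb, that was 10.4 times the median gene in DRB [8.51, 12.5], 9.68 times in ActD [7.96, 11.7] and 8.99 times in DMSO [7.32, 10.9]. The intervals overlap, so no difference in MYC dose between the treatments was detectable at this depth. Summed over the 3 libraries MYC stood at 9.72 times the median gene [8.68, 10.8], rank 37 of 31853 genes, of which 1.37% reached 5 times.

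PVT1 had 9.14 counts in DRB, 9 in ActD and 9 in DMSO, and its ratio to the median gene was 1.68 in DRB, 1.55 in ActD and 2.90 in DMSO. Summed, the ratio was 1.90 [1.25, 2.75], rank 5617, below the 2 times that 15.9% of genes reached. The effective length behind it was 554 to 1004 bases, that of PVT1 transcripts, so the value does not speak for the 307 kb of the gene. Along the chromosome, CASC11 stood at 11.7, TRIB1 at 9.62, PRNCR1 at 6.80 and CCAT1 at 5.41 times the median gene, all upstream of MYC. Between them FAM84B stood at 1.09, PCAT1 at 0.779 and POU5F1B at 0.689, so high and low genes alternated. TMEM75, inside PVT1, stood at 0.822.

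**Figure D2:**
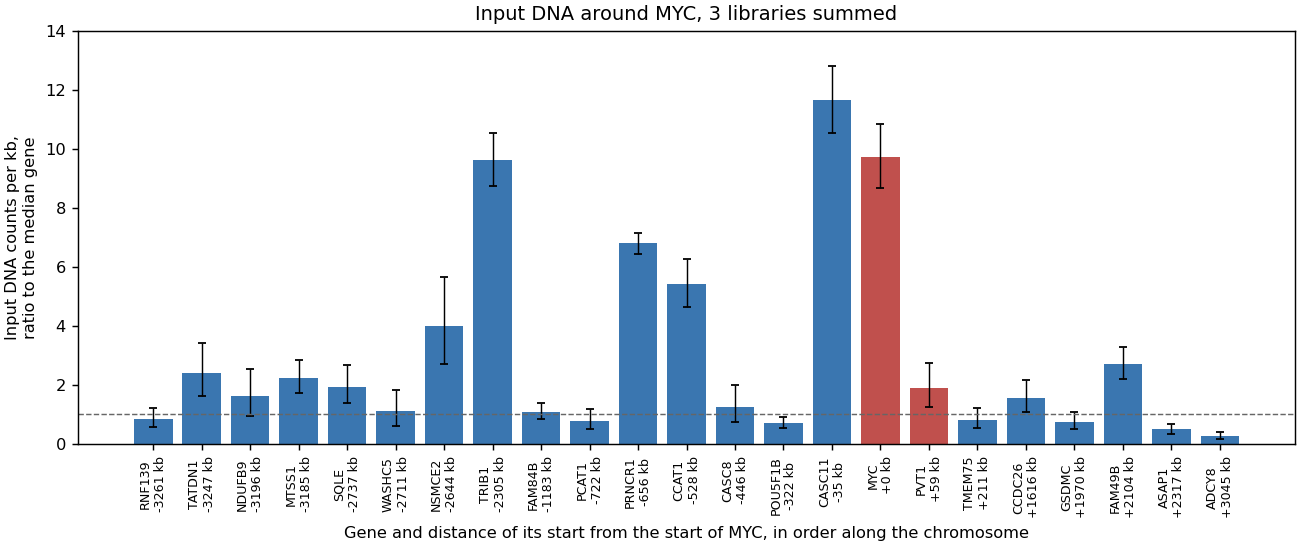
Input DNA counts per kb of each gene, divided by that of the median gene, with the 3 input libraries summed and exact 95% Poisson intervals. Genes are in chromosomal order with the distance of their start from the start of MYC, and the dashed line marks the median gene. MYC stood at 9.72 and CASC11 at 11.7, whereas PVT1 stood at 1.90 and TMEM75 at 0.822.

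ChIP peaks are given as the authors called them in each library. Tags are sequenced fragments under a peak, taken as per 10000000 tags, and tags per kb divide them by the peak's width. Tags of the control library, which the files do not identify, were put on the same scale. IP depths cannot be recovered where the authors had scaled the immunoprecipitation to its control, so tag ratios have no interval.

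All 5 acH2A.Z lists had a peak over the start of MYC, and under DRB, ActD and DMSO it was wide. A peak within 20 kb was held by 63.7% of all genes in the DRB list, 57.5% in ActD, 52% in DMSO, 41.8% in siMyc and 53.8% in siNTC. The peak over the MYC start was 5902 bases wide in DRB, 3628 in ActD and 4824 in DMSO. Median widths of these lists were 1394, 915 and 1772 bases. The log2 ratio of its width to DMSO was 0.29 in DRB and -0.41 in ActD. Over peaks that overlap 1 to 1 the median was 0.066 in DRB and 0.10 in ActD. In DRB the MYC peak ran from 127733385 to 127739287, in ActD from 127734046 to 127737674 and in DMSO from 127733615 to 127738439. Relative to DMSO, the left edge moved by -230 bases and the right edge by 848 bases in DRB, so the peak was wider on both sides. In ActD the left edge moved by 431 bases and the right edge by -765 bases, so the peak was narrower on both sides. A second ActD peak of 500 bases with 15.3 tags began 2.82 kb behind the start, within the stretch of the single DMSO peak, and ended beyond the right edge of that peak.

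The acH2A.Z tags over the MYC start numbered 1581 in DRB, 589.9 in ActD and 709.6 in DMSO. This made tags higher in DRB than in DMSO, at a log2 ratio of 1.16, as at 28.7% of the 14962 peaks that overlap 1 to 1. Per kb the peak had 268 tags in DRB, 163 in ActD and 147 in DMSO. The log2 ratio of tags per kb was 0.86 for DRB and 0.14 for ActD, both within 2-fold. Among paired peaks 13.8% were higher and 16.5% lower per kb in DRB, and 2.52% higher and 35% lower in ActD. The median pair stood at -0.06 in DRB and -0.68 in ActD, so relative to it the MYC start was at 0.92 in DRB and 0.82 in ActD. The ratio of ActD to DRB was -0.72, beside -0.68 for the median of 17872 pairs, of which 4.67% were higher and 38.5% lower.

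Averaged over the whole width of the acH2A.Z peak at the MYC start, the control library was also high. It had 28.6 tags per kb in DRB, 29.3 in ActD and 19.3 in DMSO, which is 15.3, 11.1 and 6.78 times the median control over all peaks of the DRB, ActD and DMSO lists. Fold over control at this peak, a value of the authors, was 9.36 in DRB, 5.54 in ActD and 7.63 in DMSO. The gain of MYC in input DNA, at 8.99 to 10.4 times the median gene, stands beside these values, and its part in the height of the peak was not tested.

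**Figure D3:**
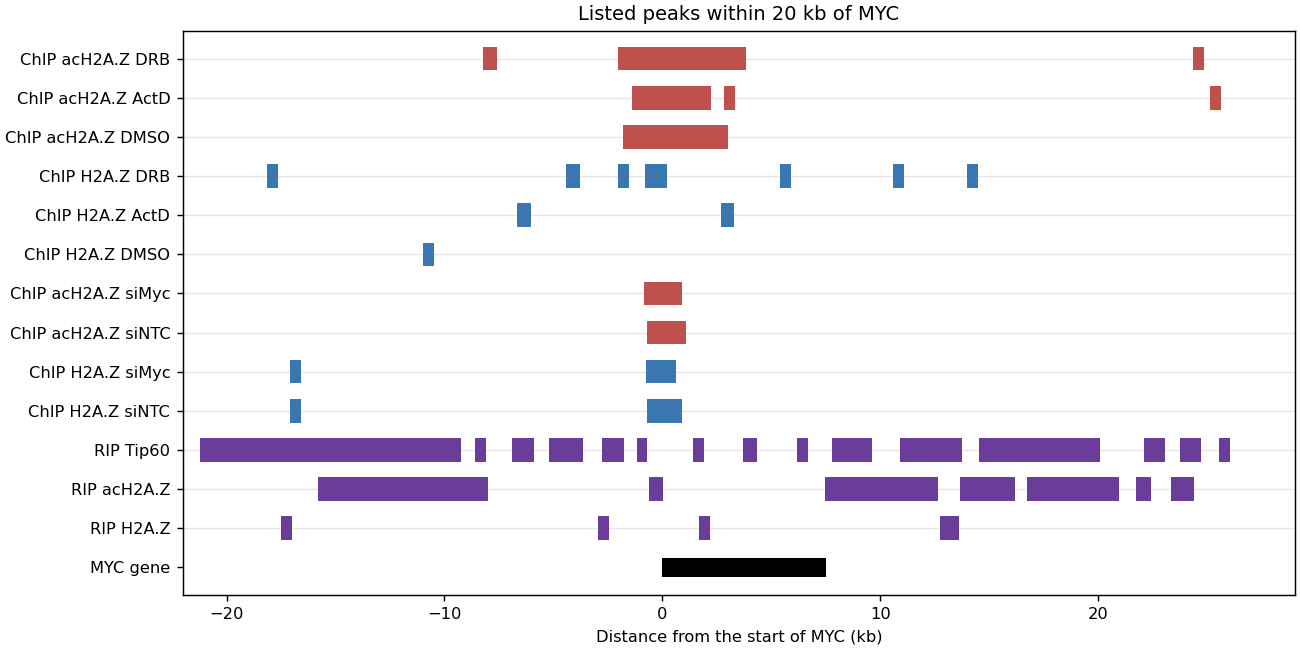
Listed peaks within 20 kb of MYC, by distance in kb from the start of MYC, in the 10 ChIP lists (acH2A.Z red, H2A.Z blue) and 3 RIP lists (purple); the black bar is the MYC gene. The acH2A.Z peak over the start was 5902 bases wide in DRB and 4824 in DMSO but 1745 in siMyc and 1791 in siNTC, and the ActD and DMSO H2A.Z lists had no peak over the start.

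H2A.Z peaks around MYC were most numerous in DRB. Within 20 kb there were 7 in DRB, 2 in ActD and 1 in DMSO, from lists of 4191, 17888 and 1271 peaks. A peak within 20 kb was held by 16.6% of all genes in DRB, 22.6% in ActD and 6.86% in DMSO. The DRB peak over the start ran from 127734620 to 127735644 with 103.9 tags, 101 per kb, rank 8 of the list. Neither the ActD nor the DMSO list had a peak over the start. The nearest ActD peak, of 24.6 tags, lay 2.67 kb behind the start inside the gene, and the DMSO peak, of 17.6 tags, ended 10.5 kb before it. Control tags over the DRB peak, 1024 bases wide, were 3.83 per kb, 2.05 times the median of the list. The wider acH2A.Z peak over the same start in DRB had 28.6 control tags per kb on average. Whether both lists used the same control is not given in the sources used here. A list without a peak shows only that the caller's limits were not met.

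In cells labelled siMyc and siNTC the MYC start carried the densest peak of each of the 4 lists. For H2A.Z, 2 peaks lay within 20 kb of MYC in each of siMyc and siNTC, and 27.8% of all genes had such a peak in siMyc and 18.1% in siNTC. The acH2A.Z peak had 1518 tags over 1745 bases in siMyc and 3449 tags over 1791 bases in siNTC, which is 870 tags per kb in siMyc and 1926 in siNTC. The densest other peak had 201 tags per kb in siMyc and 1648 in siNTC. The H2A.Z peak had 952.4 tags over 1395 bases in siMyc and 1620 over 1595 bases in siNTC, which is 683 tags per kb in siMyc and 1015 in siNTC. The densest other H2A.Z peak had 629 tags per kb in siMyc and 753 in siNTC. MYC thus led all 4 lists in tags per kb, whereas it ranked 844 in the DRB, 2762 in the ActD and 5437 in the DMSO list of acH2A.Z.

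**Figure D4:**
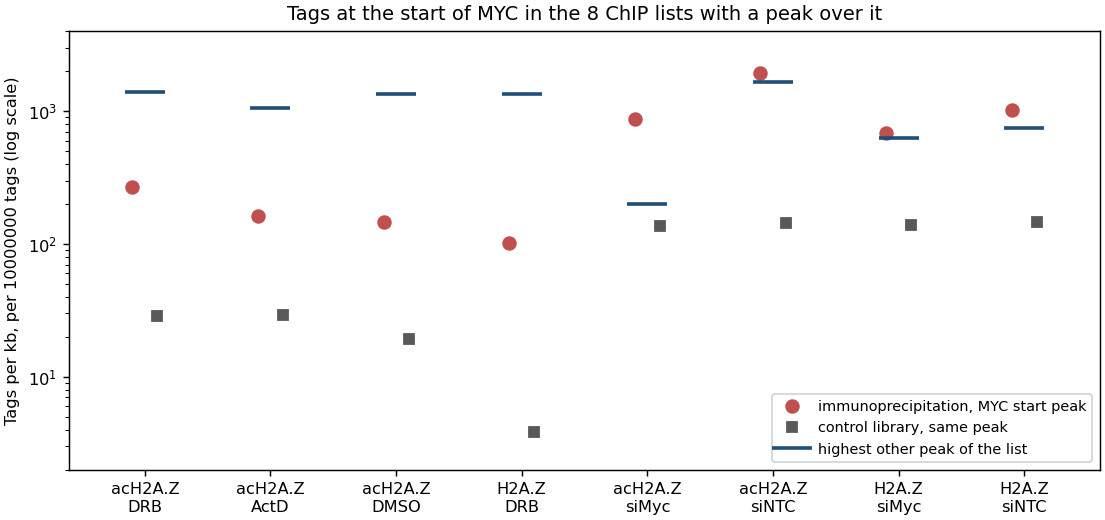
Tags per kb, per 10000000 tags and on a log axis, in the peak over the MYC start of 8 ChIP lists (red), in the control library over the same peak (grey squares) and in the densest other peak of the list (blue bars). The MYC start lies above the blue bar in the 4 siRNA-labelled lists and below it under DRB, ActD and DMSO, and the control lies between 136 and 145 in those 4 lists, against 3.83 to 29.3 in the others.

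Over the MYC start acH2A.Z was lower in siMyc than in siNTC, and H2A.Z stayed within 2-fold. The log2 ratio of tags per kb was -1.15 for acH2A.Z. Of 7608 paired acH2A.Z peaks 45.6% were lower and 0.723% higher, with a median pair of -0.57, which left MYC at -0.58 relative to it. As a share of all tags in peaks the acH2A.Z ratio turned to 2.34, since the siMyc list held 355355 tags in peaks and the siNTC list 3986659. Scaling also differed, with control tags fitted to the immunoprecipitation in siMyc and the reverse in siNTC. For H2A.Z the ratio was -0.57, beside a median pair of -0.01. Of 1496 paired H2A.Z peaks 1.34% were lower and 0.334% higher by 2-fold, and 6.35% had a lower ratio than MYC.

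Control tags over the MYC start were high in both siMyc and siNTC. They stood at 136 per kb in siMyc and 143 in siNTC for acH2A.Z, and at 139 in siMyc and 145 in siNTC for H2A.Z. These values rank first or second in their lists and are 13.9 to 48.0 times the list medians. Fold over control was 6.38 in siMyc and 13.5 in siNTC for acH2A.Z, and 4.90 in siMyc and 6.99 in siNTC for H2A.Z. What part the control's height has in the rank of MYC was not tested. Between the treatment sets the peak differed more than within them, with acH2A.Z in siNTC at 3.71 in log2 tags per kb over DMSO, above 99.7% of 11414 pairs, of which 25.2% were higher and 39.6% lower. Its width was 1791 bases in siNTC and 4824 in DMSO.

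All 5 lists had an acH2A.Z peak over the start of PVT1 or beginning within 1 kb of it. Of all genes, 46.7% held a peak in the gene body in the DRB list, 39.5% in ActD, 37.7% in DMSO, 21.3% in siMyc and 39.6% in siNTC. Under DRB the peak had 323.5 tags over 2687 bases, under ActD 169.4 over 2407 and under DMSO 341.3 over 2585. Per kb that was 120 tags in DRB, 70.4 in ActD and 132 in DMSO, and ActD was the lowest. The log2 ratio to DMSO was -0.13 in DRB and -0.91 in ActD, both within 2-fold, and relative to the median pair it was -0.07 in DRB and -0.23 in ActD. The PVT1 start thus stood near the middle of all pairs in both, with 46.9% of pairs lower in DRB and 39.0% in ActD. Control tags were 7.99 per kb in DRB, 4.67 in ActD and 2.31 in DMSO. MIR1204, which lies 1.44 kb into PVT1, was inside this peak in all 5 lists.

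In the siRNA-labelled cells the acH2A.Z peak at the PVT1 start had 69.4 tags over 2505 bases in siMyc and 751.0 tags over 3302 bases in siNTC. Per kb this was 27.7 tags in siMyc and 227 in siNTC, lower in siMyc at a log2 ratio of -3.04, or -2.47 relative to the median pair. Of paired peaks 14.6% had a lower ratio. As a share of all tags in peaks the ratio turned to 0.45. Fold over control at this peak was 5.94 in siMyc and 18.04 in siNTC.

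H2A.Z at the PVT1 start was listed in DRB, with 12.9 tags, and in siMyc, with 145 tags over 1202 bases, and in none of the ActD, DMSO and siNTC lists. A peak in the gene body was held by 8.57% of all genes in DRB, 12.3% in ActD, 3.61% in DMSO, 13.5% in siMyc and 9.23% in siNTC. Control tags over the siMyc peak were 26.3 per kb, 9.06 times the list's median.

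PVT1 as a whole held 1 to 3 acH2A.Z peaks in each list, the peak at its start included. There were 3 in DRB, 3 in ActD and 1 in DMSO, where the median of 1393 genes of 200 to 500 kb was 1 in DRB, 2 in ActD and 1 in DMSO. There was 1 in siMyc and there were 3 in siNTC, where the median of such genes was 0 in siMyc and 1 in siNTC, and 91.3% of 1390 genes had fewer than PVT1 in siNTC. For H2A.Z, PVT1 held 1 peak in DRB and 3 in siMyc, where the median was 0 in DRB and 1 in siMyc, and 90.7% of genes had fewer in siMyc. The ActD, DMSO and siNTC lists of H2A.Z had 0 peaks in PVT1, as did the median gene of that length. Peaks other than those at the start had 5.94 to 19.1 acH2A.Z tags. A peak 16.7 kb into the gene was listed in DRB with 14.9 tags and overlapped one in ActD with 18.7 tags. A DRB peak of 19.1 tags, 254 kb into the gene, ended within the first bases of MIR1207.

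RIP peaks mark RNA, or other nucleic acid, recovered with an antibody, and the lists carry no strand. Within 20 kb of MYC there were 15 Tip60, 7 acH2A.Z and 4 H2A.Z peaks. They covered 29.6 kb for Tip60, 22.1 kb for acH2A.Z and 2.35 kb for H2A.Z, that is 62.3%, 46.6% and 4.95% of the window. A RIP peak within 20 kb was the rule in these lists, being held by 94.9% of all genes for Tip60, 95.8% for acH2A.Z and 83.4% for H2A.Z.

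For Tip60 and acH2A.Z, the RIP peaks covered less of MYC than of its flanks. Tip60 peaks covered 76.7% of the 20 kb upstream, 21.6% of the gene and 63.1% of the 20 kb downstream. The acH2A.Z RIP peaks covered 42.2% upstream, 0.918% of the gene and 68.2% downstream. The few H2A.Z RIP peaks covered 5.00% upstream, 6.65% of the gene, by 1 peak of 500 bases, and 4.27% downstream. The widest Tip60 peak, of 11976 bases and 309.1 tags, ended 9.24 kb before the MYC start and was rank 29 of 249628 by tags. The acH2A.Z peak with most tags, 346.0 over 4250 bases, began 16.7 kb behind the start. A narrow acH2A.Z peak of 630 bases and 13.1 tags ended at the MYC start itself, 0.003 kb inside the gene, where the control was 0.952 times the list's median.

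Several of these peaks had a high control. Over the Tip60 peak from 14.5 to 20.1 kb behind the start, the control stood at 70.5 times the list's median, and over the acH2A.Z peak from 13.7 to 16.2 kb at 79.2 times. Over the widest Tip60 peak it stood at 11.4 times. With a fold over control of at least 8, there remained 9 Tip60, 4 acH2A.Z and 0 H2A.Z peaks.

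Tip60 and acH2A.Z peaks around MYC shared ground. Of the 15 Tip60 peaks 7 shared at least 1 base with an acH2A.Z RIP peak, or 46.7%, and of the 7 acH2A.Z peaks 6 did so, or 85.7%. All 4 H2A.Z RIP peaks shared a base with a Tip60 peak and 0 with an acH2A.Z peak. Given that most genes have such peaks nearby, these overlaps describe the window and were set against no other.

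**Figure D5:**
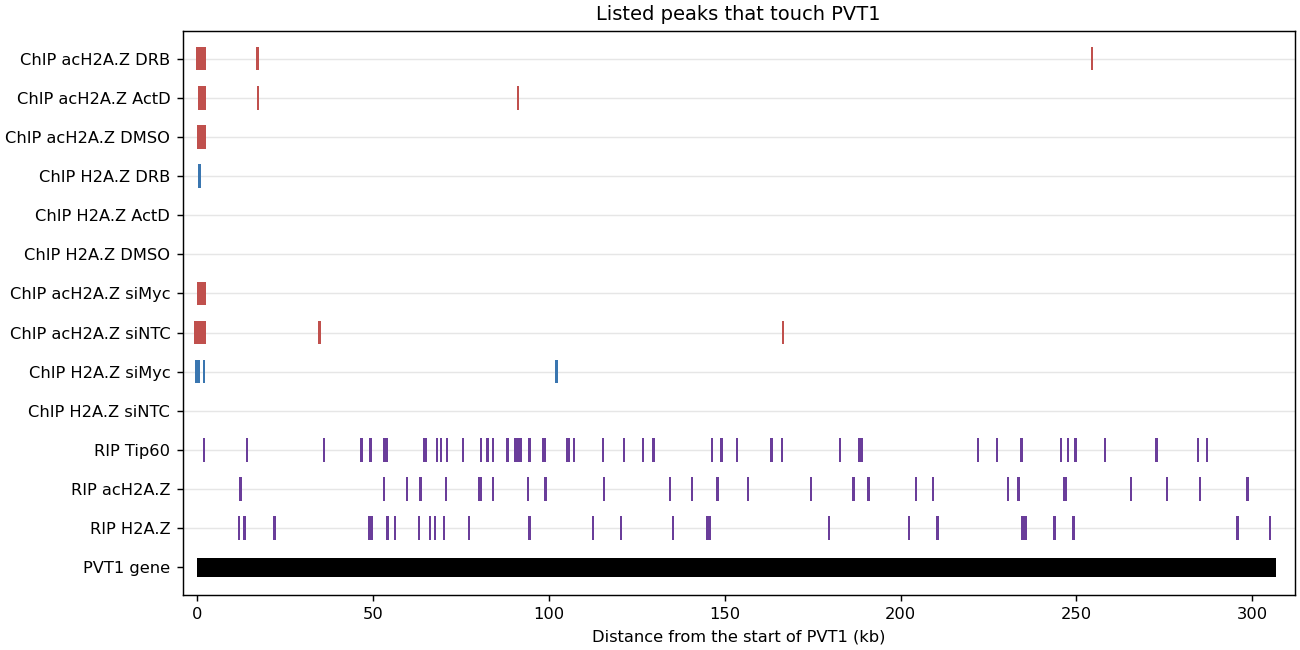
Listed peaks that touch PVT1, by distance in kb from the start of PVT1, in the 10 ChIP lists (acH2A.Z red, H2A.Z blue) and 3 RIP lists (purple); the black bar is the gene, and narrow peaks are drawn at a minimum width. Each ChIP list with peaks in PVT1 had 1 at the start, while the 41 Tip60, 26 acH2A.Z and 24 H2A.Z RIP peaks spread along the gene.

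Along PVT1 the RIP lists held 41 Tip60, 26 acH2A.Z and 24 H2A.Z peaks. A peak in the gene body was held by 68.1% of all genes for Tip60, 68.5% for acH2A.Z and 47.9% for H2A.Z. Set against 1393 genes of 200 to 500 kb, whose medians were 23, 22 and 10 peaks for Tip60, acH2A.Z and H2A.Z, PVT1 had more Tip60 peaks than 82.8% of them, more acH2A.Z peaks than 60.2% and more H2A.Z peaks than 94.97%. Peaks covered 9.61% of PVT1 for Tip60, 5.11% for acH2A.Z and 5.44% for H2A.Z, beside medians of 5.49%, 5.11% and 1.90%. PVT1 was thus at the middle of long genes for acH2A.Z and in the upper part for H2A.Z.

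The peaks were spread unevenly along PVT1. In 5 equal stretches from its start to its end, Tip60 had 6, 16, 8, 4 and 7 peaks, acH2A.Z 3, 7, 5, 6 and 5, and H2A.Z 6, 8, 3, 4 and 3. The second stretch held the most peaks in each list, but the most tags for Tip60 only. The acH2A.Z RIP peaks had 91.74 tags in the last stretch and 78.96 in the second. The H2A.Z RIP peaks had 71.73 tags in the first stretch and 52.85 in the second. The Tip60 peak with most tags in PVT1, 40.0 over 2226 bases, began 90.1 kb from the start. The acH2A.Z RIP peak with most tags, 43.9 over 1389 bases, began 246 kb from it. Of the 41 Tip60 peaks 9 shared a base with an acH2A.Z RIP peak, or 21.95%, and of the 26 acH2A.Z peaks 9 did so, or 34.6%. Tip60 had 1 peak in TMEM75 (LINC02912), of 4.17 tags, and 1 at MIR1205, of 4.67 tags. By tags per kb they ranked 199436 and 159377 of 249628 peaks. RIP was done in untreated cells, where TMEM75 had 3 counts in nascent and 1 in total RNA.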

How the data were processed

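HL-60 RNA, input DNA, ChIP and RIP libraries were read from 8 gene tables and 13 peak lists, and the 6 IgG libraries were not analysed here. The submitters' processing notes name GRCh38 as the build and list the aligner STAR 2.5.2b and the peak caller HOMER among the tools, after trimming with Trim Galore. The annotation and quantifier are not given in the sources used here. The deposited gene tables hold expected counts, which need not be whole, and TPM, which served as an alternative for input DNA. In 3 deposited tables, nascent RNA of DRB, ActD and DMSO, all columns are packed into other text fields and were split. Per the file headers the peak lists come from HOMER's peak finder, with a p-value, a fold over control, a score and tag counts (signal). In the deposited lists each fold is at least 4 and each p-value at most 0.0001, and in 10 of them the authors' calls scaled the immunoprecipitation to the control.

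From these, CPM, ratios with a pseudocount of 1 CPM, exact 95% binomial and Poisson intervals on rounded expected counts and tags per kb were computed with Python 3.11.15, pandas 2.3.3, numpy 2.4.6 and scipy 1.17.1. The TMM alternative used edgeR 4.0.16 in R 4.3.3 for size factors only. Genes were measured at a mean of at least 1 CPM and 20 summed counts over the libraries compared (DRB, ActD and DMSO together), and for input DNA at 5 summed counts. Control tags were scaled by the library size that total and normalized tags imply. Genes at 0 counts were drawn at a floor of 3 counts in the figure of RNA levels, and no ratio used that floor. The arithmetic was tested on simulated data.

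The members, gene lists and tests were chosen with earlier results of these data known. Named genes were MYC, PVT1, their overlapping and adjacent genes, the highest and lowest of 4 lists, a few further members of those lists picked after their values were seen, and the 5 genes nearest in distance among those with 100 summed counts. Symbols were matched to RefSeq for positions. Alternatives covered the pseudocount, scaling, filters, windows, a stricter fold and shares of tags.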

Additional observations from a re-analysis of the deposited data

Results flagged for a closer look

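At the start of PVT1, siMyc and siNTC were set against each other for both antibodies. For acH2A.Z the difference of siMyc minus siNTC was -681.6 tags, from 69.4 in siMyc and 751.0 in siNTC. As a share of all tags in peaks the acH2A.Z log2 ratio turned to 0.45, so its direction depends on the scaling. For H2A.Z a peak of 145 tags was listed in siMyc and none in siNTC, which gives a difference of 145 tags only if the unlisted peak is counted as 0. An unlisted peak shows only that the caller's limits were not met, so no direction is drawn for H2A.Z, and the difference between the antibodies was not tested. The lists held 11180 H2A.Z peaks in siMyc and 6956 in siNTC, and 14528 acH2A.Z peaks in siMyc and 17353 in siNTC. Over the siMyc peaks the control had 26.3 tags per kb for H2A.Z and 4.67 for acH2A.Z.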

How the results depend on the processing

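No paired analysis was possible because each group has 1 library and the labels carry no replicate numbers. Of 152 alternatives over 47 results, 99 stayed close to the main value, 51 moved and 2 reversed from a difference of at least 2-fold. For RNA and input DNA, close meant a shift smaller than the distance from the middle of the interval to its end. Such a value can lie outside the interval. For peaks and their tags, close meant within 1.5 times the value. The cause of the shifts was not tested. In 3 of the other alternatives a difference short of 2-fold changed sign, PVT1 RNA in DRB with median centring and TMM, and acH2A.Z at the PVT1 start in DRB, at 0.15 as a share of tags in peaks. As a share of tags in peaks, siMyc against siNTC for acH2A.Z reversed to 2.34 at the MYC start and 0.45 at the PVT1 start.

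For RNA, with median centring, rescaling, TMM and unfiltered centring in that order, MYC in DRB gave -5.001, -6.00, -5.24 and -5.43 (-6.98 with a pseudocount of 0.1) and PVT1 0.24, -0.30, 0.12 and -0.18. MYC in ActD gave -1.10, -1.73, -1.20 and -1.51. With a pseudocount of 0.1, PVT1 gave -1.05 in DRB and -5.96 in ActD, both relative to DMSO. In DMSO against untreated nascent RNA, rescaling gave -0.47 for MYC and -1.88 for PVT1, and TMM -0.32 and unfiltered centring -0.058 for MYC. In untreated nascent against total RNA, MYC gave -0.0023, -0.059, -0.0091 and -0.45, and PVT1 0.94, 0.89 and 0.92 in the first 3. MYC dose was 7.67 with a minimum of 20 counts.

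A window of 5 kb gave 1 H2A.Z peak in ActD, 0 in DMSO, 1 each in siMyc and siNTC, 1 acH2A.Z peak in DRB, and 8 Tip60, 2 acH2A.Z and 2 H2A.Z RIP peaks. A window of 50 kb gave 14 H2A.Z peaks in DRB and 12 acH2A.Z RIP peaks. A fold of at least 8 gave 0 H2A.Z peaks at MYC in ActD, siMyc and siNTC, 1 acH2A.Z peak in ActD, 0 in DMSO and siMyc, and 9, 4 and 0 RIP peaks for Tip60, acH2A.Z and H2A.Z. In PVT1 it gave 1 H2A.Z peak in siMyc, 0 and 1 acH2A.Z peaks in siMyc and siNTC, and 6 H2A.Z RIP peaks. Centring on paired peaks, chosen after seeing the data, gave 0.82 at MYC and -0.23 at PVT1 for ActD against DMSO, and -0.035 at MYC and -0.090 at PVT1 for ActD against DRB. Requiring at least 50% of a peak inside the window left all 26 counts unchanged. Depth limits PVT1 most, with 1 count in ActD and 27.1 in input DNA.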

Other observations

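Of 47 neighbours of MYC listed besides the pair, 16 were measured under DRB, ActD and DMSO. In DRB 4 rose and 7 fell, where 9.1% of all genes rose and 54.7% fell, and in ActD 0 rose and 7 fell, where 15.4% of all genes rose and 50.1% fell. The 4 risers were TMEM75, LINC00977, PCAT1 and LINC00976, all non-coding genes. LINC00977 had 94 counts in DRB, 0 in ActD and 1 in DMSO, PCAT1 58 in DRB and 0 in both others, and LINC00976 53 in DRB and 0 in both others. These genes met the limit for a measured gene only through the DRB library, so their number supports nothing. The protein-coding genes SQLE, TRIB1 and FAM49B were listed by name and lie more than 2 Mb from MYC, SQLE at -2737 kb, TRIB1 at -2305 kb and FAM49B at 2104 kb from its start. TRIB1, a pseudokinase gene with high input DNA, had 9 counts in DRB, 1289 in ActD and 1150 in DMSO. SQLE, an enzyme of cholesterol synthesis, had 16 counts in DRB, 11 in ActD and 1492 in DMSO. FAM49B had 360 in DRB, 20 in ActD and 394 in DMSO.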
